A study of Mus musculus with 2 samples.

Results

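Bile acids are made, conjugated and moved by a small set of hepatocyte genes, and 10 of them were followed here: Cyp7a1, Cyp8b1, Cyp27a1, Cyp7b1, Nr0b2, Nr1h4, Slc10a1, Abcb11, Baat and Slc27a5. They were chosen by gene symbol, 10 of the 33696 genes in the tables. Single cells from mouse liver were sequenced at the 3' ends of their transcripts (Chromium 3' v3), with 1 library labelled SLC22A18-/- (knockout of the transporter gene Slc22a18) and 1 library labelled SLC22A18+/+ (wild type). The labels give no strain, age, sex, treatment, deleted exons or number of animals. Because each genotype is a single library, no test between genotypes was possible, and genotype cannot be told apart from animal or preparation. Intervals are exact 95% intervals and cover counting error only.

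Bile acids are the end products of cholesterol breakdown. In the classical route Cyp7a1 adds the first hydroxyl group and Cyp8b1 steers the product towards cholic acid, while the alternative route begins with Cyp27a1 and continues through Cyp7b1. Slc27a5 and Baat activate bile acids and join them to taurine or glycine, Abcb11 exports them into bile, and Slc10a1 takes them back up from blood. The receptor FXR, encoded by Nr1h4, senses bile acids and induces Nr0b2 (SHP), a repressor of Cyp7a1 and Cyp8b1, which closes a feedback loop.

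The SLC22A18-/- library held 103478998 unique molecules (UMIs) in 11741 barcodes and the SLC22A18+/+ library 105556354 UMIs in 12796 barcodes, with 38 barcode sequences found in both. After filtering, 3200 of 11104 and 3296 of 12002 cells fell in clusters with hepatocyte markers, at medians of 5270 and 4801 UMIs. All 9 hepatocyte markers were detected in each of the 6 hepatocyte clusters. Slc22a18 itself was present in hepatocytes of both, at 53.2 and 57.4 UMIs per 1000000 (CPM), a ratio of 0.928 (0.862 to 0.998), so the counts did not verify the knockout label. Each direction below is therefore one between a library labelled knockout and a library labelled wild type. The hepatocyte clusters were of 2 kinds. Clusters 8, 10, 11 and 19 were rich in the nuclear RNA Malat1 (32166 to 47639 CPM), and clusters 22 and 23 were poor in it (3124 and 1176 CPM). The Malat1-rich kind held 75.7% of the hepatocytes of the SLC22A18-/- library and 68.8% of those of the SLC22A18+/+ library, and cluster 8 was the largest in the former and cluster 10 in the latter. Library ratios of the members over all hepatocytes are accordingly also given within each kind, and those by zone of the lobule within Malat1-rich clusters.

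Promoter letters are shown for 3 members, one whose level was lower in the SLC22A18-/- library (Nr0b2), the exporter of the loop (Abcb11) and the enzyme of the classical route whose library ratio lay on the other side of 1 from that of Cyp7a1 over all hepatocytes (Cyp8b1). RefSeq promoter entries on GRCm38.p6 matched 6 of the 10 members, and the 250 bases before the annotated start were read, on the strand of the gene. Searched on both strands were AGGTCA (the single site of many nuclear receptors), TCAAGG (the core bound by Nr5a2, a partner repressed by SHP), CAAAGTCCA (a site type of HNF4) and AGGTCANTGACCT (a perfect inverted repeat of that site, the arrangement preferred by FXR). Capitals mark matches.
Nr0b2, chr4:133553126-133553375, plus strand: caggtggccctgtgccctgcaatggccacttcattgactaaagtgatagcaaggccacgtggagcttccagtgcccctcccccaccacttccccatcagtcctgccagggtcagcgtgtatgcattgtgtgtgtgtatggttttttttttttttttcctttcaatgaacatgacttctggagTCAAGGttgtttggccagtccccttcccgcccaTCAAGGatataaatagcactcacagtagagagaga
Abcb11, chr2:69342617-69342866, minus strand: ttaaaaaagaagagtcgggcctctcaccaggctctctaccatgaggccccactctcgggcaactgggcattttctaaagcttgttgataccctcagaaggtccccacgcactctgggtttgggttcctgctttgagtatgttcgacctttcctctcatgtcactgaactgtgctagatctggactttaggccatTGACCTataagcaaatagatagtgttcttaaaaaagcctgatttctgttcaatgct
Cyp8b1, chr9:121916306-121916555, minus strand: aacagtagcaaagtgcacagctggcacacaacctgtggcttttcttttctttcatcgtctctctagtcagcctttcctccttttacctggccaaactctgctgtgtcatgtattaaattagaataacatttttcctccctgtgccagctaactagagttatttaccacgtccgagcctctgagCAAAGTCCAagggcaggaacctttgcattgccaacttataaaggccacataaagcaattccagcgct
Nr0b2 held TCAAGG at 68 and 35 bases before its start. Abcb11 held AGGTCA on the opposite strand 56 bases before the start, and Cyp8b1 held CAAAGTCCA 67 bases before. Nr1h4 (214 bases before) and 1 of the 2 windows of Slc10a1 (87 bases before) also held AGGTCA, and the window of Cyp27a1 held none of the 4 motifs. Those windows of Nr1h4 (chr10:89506659-89506908) and Slc10a1 (chr12:80968080-80968329) lay before starts inside the gene. The other window of Slc10a1, before the outer start of the gene, held none of the motifs. Among 32817 promoter windows of the same length, 14.0% held AGGTCA, 12.5% TCAAGG, 0.384% CAAAGTCCA and 0.00609% the inverted repeat. The inverted repeat overlaps AGGTCA by construction. These matches are descriptions of letters only, and binding was not measured.

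Among the members Cyp7a1 had the highest ratio of the SLC22A18-/- to the SLC22A18+/+ library and Nr0b2, its repressor, the lowest. A rule of size stood in for a test. It asked for a CPM ratio of at least 2 in either direction with an interval excluding 1, at least 50 UMIs, and a UMI in 5% or more of the hepatocytes where the gene was higher. By this rule 2 of 10 members were called, 1 higher and 1 lower, against 0.417% of 14611 genes tested (0.294% higher and 0.123% lower). Intervals that merely excluded 1 were found for 8 members, 6 above and 2 below, but also for 42.3% of all genes. The median log2 ratio of the members was 0.15 and that of all genes 0.06.

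Cyp7a1 (ENSMUSG00000028240, chr4:6265612-6275633, minus strand), which encodes the rate-limiting enzyme of the classical route, gave 6746 UMIs (257 CPM, 251 to 263) in the SLC22A18-/- library and 3196 UMIs (121 CPM, 116 to 125) in the SLC22A18+/+ library. The ratio was 2.13 (2.05 to 2.23). It was above 1 in 6 of 6 hepatocyte clusters, from 1.35 in cluster 23, where the interval held 1, to 2.10 in cluster 19. Clusters 8, 10 and 11 had 1.82 (1.72 to 1.93), 1.51 (1.25 to 1.83) and 1.61 (1.48 to 1.74). The pooled ratio thus lay above that of every cluster, and only cluster 19 passed the size rule. In Malat1-rich clusters the levels were 301 and 149 CPM, a ratio of 2.03 (1.94 to 2.12), and in Malat1-poor clusters 44.1 and 38.2 CPM, a ratio of 1.15 (0.953 to 1.39). With each cell weighted equally the ratio was 1.95 and with the zones weighted equally 1.96, just under the size rule.

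A larger share of all hepatocytes carried the transcript as well, but not of those in Malat1-poor clusters. After thinning each cell to 2472 UMIs, 31.8% (29.997 to 33.6) of hepatocytes of the SLC22A18-/- library and 18.2% (16.7 to 19.7) of those of the SLC22A18+/+ library had a Cyp7a1 UMI. Thinning left out 543 and 755 shallower cells, and the shares without it were 42.5% and 29.4%. By kind, the thinned shares were 35.8% (33.8 to 37.8) and 21.3% (19.6 to 23.2) in Malat1-rich clusters, from 2310 and 2044 cells. In Malat1-poor clusters they were 4.90% (2.88 to 7.73) and 5.23% (3.45 to 7.57), from 347 and 497 cells. T cells, which should lack the gene, gave 2.26% and 1.25% thinned and 4.93% and 3.98% unthinned, at median depths of 6272 and 5854 UMIs.

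Nr0b2 (ENSMUSG00000037583, chr4:133553376-133556536, plus strand), the repressor SHP, gave 651 UMIs (24.8 CPM, 22.9 to 26.8) in the SLC22A18-/- library and 1506 UMIs (56.8 CPM, 54.0 to 59.7) in the SLC22A18+/+ library. Its ratio was 0.437 (0.398 to 0.479), or 2.29-fold lower (2.09 to 2.51). All 6 clusters had ratios below 1, from 0.312 (0.247 to 0.391) in cluster 11 to 0.831 (0.572 to 1.19) in cluster 22. Malat1-rich clusters held 412 and 1075 UMIs (18.95 and 54.4 CPM), a ratio of 0.348 (0.310 to 0.390). Malat1-poor clusters held 239 and 431 UMIs (53.2 and 63.6 CPM), a ratio of 0.836 (0.711 to 0.981). A difference between the kinds was not tested for either gene. After thinning, 5.46% (4.62 to 6.39) and 13.2% (11.9 to 14.6) of hepatocytes had a UMI, and 14.2% and 25.9% without thinning. By kind, the thinned shares were 4.42% (3.61 to 5.33) and 12.1% (10.7 to 13.6) in Malat1-rich clusters. In Malat1-poor clusters they were 12.4% (9.12 to 16.3) and 17.7% (14.5 to 21.4). Of the T cells 0.251% and 0.417% did after thinning and 0.704% and 0.598% without.

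Other RNA also differed between the libraries. The 14 genes of a list of dissociation-induced genes summed to 823 CPM in the SLC22A18-/- library and 1190 CPM in the SLC22A18+/+ library, with log2 ratios from -0.92 to -0.15 in 14 of 14 (the 2 with the most UMIs, Zfp36 and Dusp1, had ratios of 0.599 and 0.598, and 0 passed the size rule). Within the Malat1-rich clusters the sums were 742 and 1037 CPM, with log2 ratios of the single genes from -0.86 to 0.03. Within the Malat1-poor clusters they were 1219 and 1637 CPM, with log2 ratios from -1.34 to -0.20. There 1 of the 14 passed the size rule, against 0.217% of all genes. The part of these genes in the Nr0b2 difference was not tested. The 13 mitochondrially encoded genes summed to 13891 and 20147 CPM over all hepatocytes (mt-Atp6 0.642 and mt-Co3 0.706). In Malat1-rich clusters they stood at 9730 and 9829 CPM, and in Malat1-poor clusters at 34028 and 50229 CPM. The part of the mitochondrial difference in that of Nr0b2 was likewise not tested.

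**Figure D1:**
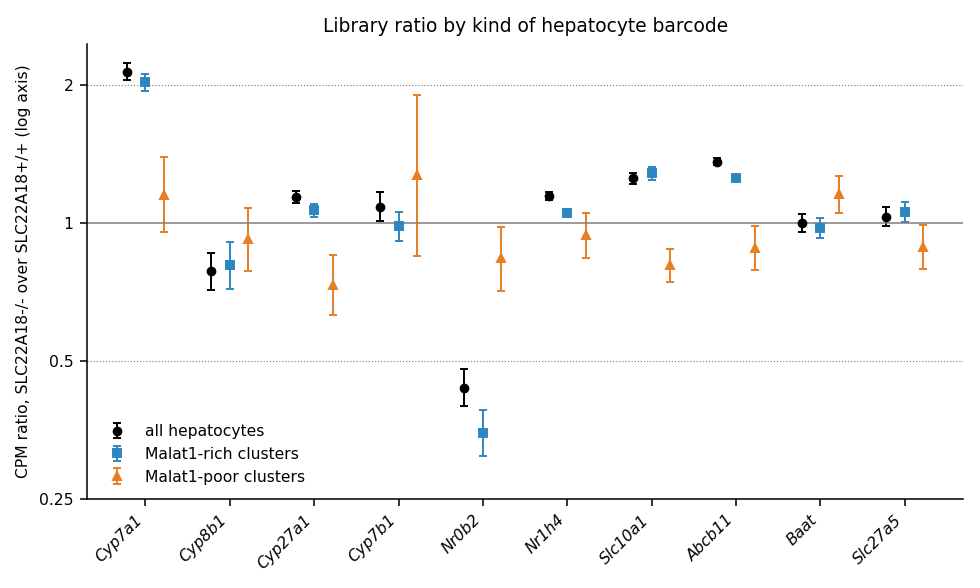
Ratio of CPM in the SLC22A18-/- library over the SLC22A18+/+ library for each member (log axis), over all hepatocytes (circles), Malat1-rich clusters (squares) and Malat1-poor clusters (triangles), with exact 95% counting intervals; dotted lines mark ratios of 0.5 and 2. Cyp7a1 (2.13) and Nr0b2 (0.437) stand past the dotted lines over all hepatocytes, and neither does in the Malat1-poor clusters (1.15 and 0.836).

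The partners of these 2 genes in the feedback loop differed less. Nr1h4 (ENSMUSG00000047638, chr10:89454234-89533585, minus strand), which encodes FXR, was at 795 and 693 CPM, a ratio of 1.15 (1.12 to 1.17), and within Malat1-rich clusters at 935 and 889 CPM, a ratio of 1.05 (1.03 to 1.07). In Malat1-poor clusters its ratio was 0.939 (0.840 to 1.05). Cyp8b1 (ENSMUSG00000050445, chr9:121914356-121916305, minus strand), the sterol 12-alpha-hydroxylase and a further target of SHP, was at 30.6 CPM (803 UMIs) and 39.1 CPM (1036 UMIs). Its ratio of 0.784 (0.714 to 0.860) lay on the other side of 1 from that of Cyp7a1. It was 0.807 (0.718 to 0.908) in Malat1-rich clusters, and 0.921 (0.786 to 1.08) in Malat1-poor clusters.

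Neither gene of the alternative route passed the rule. Cyp27a1 (ENSMUSG00000026170, chr1:74713574-74737892, plus strand), the sterol 27-hydroxylase of mitochondria, was at 338 and 297 CPM, a ratio of 1.14 (1.10 to 1.17). Summed over each kind, it was 1.06 (1.03 to 1.10) in Malat1-rich clusters and 0.733 (0.630 to 0.851) in Malat1-poor clusters. In the single Malat1-rich clusters 8, 10, 11 and 19 it was 0.980, 0.951, 0.981 and 1.05, and each interval held 1. Cyp7b1 (ENSMUSG00000039519, chr3:18071950-18243338, minus strand), the oxysterol 7-alpha-hydroxylase, was at 59.8 and 55.2 CPM, a ratio of 1.08 (1.01 to 1.16). In Malat1-rich clusters that ratio was 0.982 (0.913 to 1.06) and in Malat1-poor clusters 1.27 (0.846 to 1.90), so no direction is given for this gene.

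Both transporters had higher levels in the SLC22A18-/- library, short of the size rule, over all hepatocytes and in Malat1-rich clusters. Summed over the Malat1-poor clusters their levels were lower, but within each of those clusters the interval held 1. Abcb11 (ENSMUSG00000027048, chr2:69238282-69342616, minus strand), the bile salt export pump of the canalicular membrane, was at 1114 CPM (1102 to 1127) and 820 CPM (809 to 831), a ratio of 1.36 (1.34 to 1.38). Slc10a1 (ENSMUSG00000021135, chr12:80953183-80968705, minus strand), the sodium-dependent uptake transporter NTCP, was at 373 and 299 CPM, a ratio of 1.25 (1.21 to 1.29). In Malat1-rich clusters the ratios were 1.25 (1.23 to 1.27) for Abcb11 and 1.28 (1.24 to 1.33) for Slc10a1, and each was above 1 in 4 of 4 such clusters. Summed over the Malat1-poor clusters they were 0.882 (0.788 to 0.986) and 0.808 (0.743 to 0.879). In cluster 22 they were 1.06 (0.926 to 1.22) and 0.914 (0.817 to 1.02), and in cluster 23 1.002 (0.824 to 1.22) and 0.930 (0.816 to 1.06). The pooled ratio of Abcb11 lay above that of either kind, and its level was 1322 and 1057 CPM in Malat1-rich and 112 and 127 CPM in Malat1-poor clusters.

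For the conjugating enzymes the interval of the ratio over all hepatocytes held 1. Baat (ENSMUSG00000039653, chr4:49489422-49506557, minus strand), which joins bile acids to amino acids, was at 142.3 and 142.2 CPM, a ratio of 1.001 (0.956 to 1.05). Slc27a5 (ENSMUSG00000030382, chr7:12988346-12998192, minus strand), the bile acid CoA ligase, was at 140.3 and 136.1 CPM, a ratio of 1.03 (0.985 to 1.08). Unlike Abcb11, both had similar levels when summed over each kind of cluster. Baat was at 136 and 140 CPM in Malat1-rich and 172 and 149 CPM in Malat1-poor clusters. Slc27a5 was at 145 and 138 CPM and at 116 and 131 CPM. Among the Malat1-poor clusters, however, Slc27a5 was at 274 and 242 CPM in cluster 22 and 60.9 and 69.4 CPM in cluster 23. The ratios of Baat were 0.974 (0.925 to 1.03) in Malat1-rich and 1.15 (1.05 to 1.27) in Malat1-poor clusters. Those of Slc27a5 were 1.06 (1.002 to 1.11) and 0.886 (0.794 to 0.988).

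By kind, 2 of 10 members passed the size rule in Malat1-rich clusters (0.557% of all genes) and 0 of 10 in Malat1-poor clusters (0.217%). Intervals excluded 1 for 8 members in Malat1-rich clusters (27.6% of all genes), 6 above and 2 below. In Malat1-poor clusters they excluded 1 for 6 (21.1% of all genes), 1 above and 5 below. Fewer UMIs lay behind the latter, with 48 for Cyp7b1 in the SLC22A18-/- library as the lowest.

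Position along the liver lobule was read from a score of 16 pericentral and 16 periportal landmark genes, none of them a member, cut into 3 equal groups of cells called zones. When the score was built from every other landmark, 8 of 8 left-out pericentral and 8 of 8 left-out periportal genes lay on their own side in each library. Of the 6496 hepatocytes 715 and 531 lay within 0.05 of the 2 score limits. The pericentral zone held 35.6% of hepatocytes in the SLC22A18-/- library and 31.1% in the SLC22A18+/+ library.

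Genes of the first steps of both routes were pericentral. Cyp7a1, Cyp27a1 and Cyp7b1 were more than 2-fold higher in the pericentral than in the periportal zone in both libraries, which makes 3 of 10 members in each, against 6.83% of all genes in the SLC22A18-/- library and 4.76% in the SLC22A18+/+ library. Within Malat1-rich clusters the same 3 members passed in both libraries, against 3.94% and 3.86% of all genes.

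Cyp7a1 was at 47.2, 238 and 410 CPM in the periportal, middle and pericentral zones of the SLC22A18-/- library and at 30.5, 118 and 207 CPM in the SLC22A18+/+ library. The pericentral-to-periportal ratio was 8.70 (7.72 to 9.84) in the former and 6.78 (5.90 to 7.82) in the latter, a steep gradient in each. Between the libraries the ratio was 1.55 (1.30 to 1.85) in the periportal, 2.01 (1.88 to 2.16) in the middle and 1.99 (1.87 to 2.10) in the pericentral zone. Within Malat1-rich clusters it was 1.33 (1.10 to 1.61), 1.73 (1.61 to 1.86) and 1.91 (1.80 to 2.03), under the size rule in each zone. After thinning, 54.5% (51.2 to 57.7) of pericentral hepatocytes of the SLC22A18-/- library and 34.9% (31.4 to 38.5) of those of the SLC22A18+/+ library had a UMI (63.7% and 44.5% unthinned), against 8.84% and 5.77% in the periportal zone (14.1% and 9.67% unthinned). These shares pool both kinds of cluster. Within Malat1-rich clusters the unthinned shares were 82.3% and 63.1% in the pericentral and 15.3% and 12.2% in the periportal zone.

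Nr0b2 leaned the other way. It was at 31.8, 25.4 and 19.8 CPM from periportal to pericentral in the SLC22A18-/- library and at 69.6, 52.8 and 50.5 CPM in the SLC22A18+/+ library, pericentral-to-periportal ratios of 0.625 (0.509 to 0.767) and 0.726 (0.636 to 0.828). The library ratio was 0.457 (0.385 to 0.540) in the periportal, 0.481 (0.414 to 0.557) in the middle and 0.393 (0.329 to 0.468) in the pericentral zone. Within Malat1-rich clusters it was 0.364 (0.286 to 0.460), 0.360 (0.298 to 0.433) and 0.340 (0.280 to 0.412), and the pericentral-to-periportal ratios were 0.762 (0.587 to 0.994) and 0.816 (0.697 to 0.955). Over all hepatocytes the 3 zones of the SLC22A18-/- library were thus lower than every zone of the SLC22A18+/+ library. Over all hepatocytes the size rule was passed by 1 of 10 members in the periportal zone (Nr0b2, against 0.405% of all genes), by 2 in the middle zone (Nr0b2 and, lost within Malat1-rich clusters, Cyp7a1, against 0.706%) and by 1 in the pericentral zone (Nr0b2, against 0.78%).

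**Figure D2:**
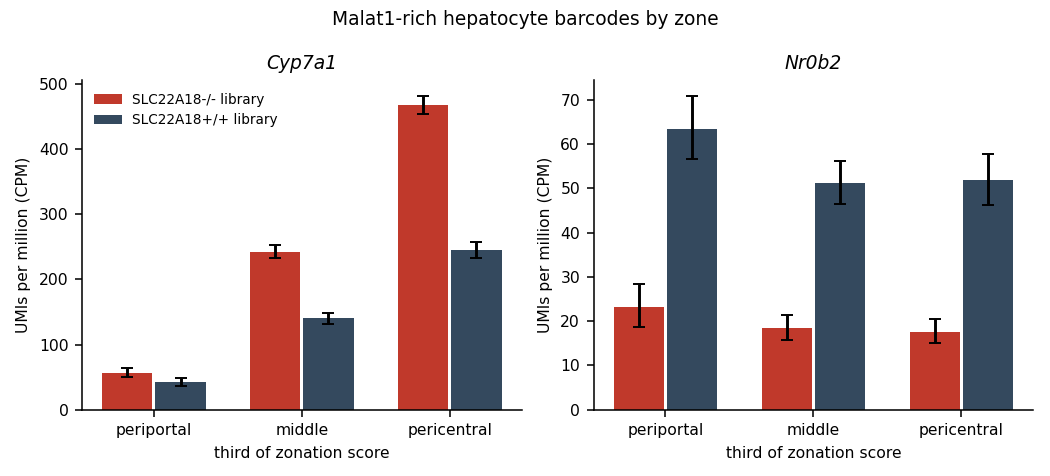
CPM of Cyp7a1 and Nr0b2 in Malat1-rich hepatocytes by zone, with exact 95% Poisson intervals; bars start at 0 and the zones were set anew in these cells. Cyp7a1 reached 467 CPM in the pericentral zone of the SLC22A18-/- library against 245 CPM in the SLC22A18+/+ library, and Nr0b2 stood between 17.6 and 23.1 CPM against 51.1 to 63.4 CPM.

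Cyp27a1 was at 153, 328 and 465 CPM across the zones of the SLC22A18-/- library and at 160, 308 and 408 CPM in the SLC22A18+/+ library, gradients of 3.03 (2.83 to 3.26) and 2.55 (2.39 to 2.73). From periportal to pericentral its library ratio was 0.958 (0.879 to 1.04), 1.06 (1.01 to 1.12) and 1.14 (1.09 to 1.19). Within Malat1-rich clusters that ratio was 0.949 (0.864 to 1.04), 0.9998 (0.951 to 1.05) and 1.01 (0.963 to 1.05). Cyp7b1 was at 17.8, 55.5 and 90.9 CPM and at 28.2, 51.0 and 85.7 CPM, gradients of 5.09 (4.17 to 6.27) and 3.04 (2.60 to 3.56). The library ratio of Cyp7b1 was 0.633 (0.497 to 0.801) in the periportal zone, and its interval held 1 in the other 2 zones. Within Malat1-rich clusters it was 0.572 (0.440 to 0.738), 0.965 (0.854 to 1.09) and 0.927 (0.838 to 1.03) from periportal to pericentral. A difference between the gradients was not tested.

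Cyp8b1 had no common gradient. It was at 30.9, 30.5 and 30.5 CPM in the SLC22A18-/- library and at 30.1, 39.2 and 47.2 CPM in the SLC22A18+/+ library, with library ratios of 1.03 (0.843 to 1.25), 0.779 (0.672 to 0.902) and 0.647 (0.553 to 0.755). Within Malat1-rich clusters, however, the pericentral-to-periportal ratios were 0.991 (0.779 to 1.27) and 1.07 (0.853 to 1.34). Both of those intervals held 1, and the library ratios there were 0.874 (0.669 to 1.14), 0.776 (0.648 to 0.928) and 0.812 (0.665 to 0.991). A difference between the profiles was not tested.

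The receptor, the transporters and the conjugating enzymes differed by less than 2-fold between the outer zones. Pericentral-to-periportal ratios of Nr1h4 were 1.46 (1.40 to 1.52) and 1.16 (1.12 to 1.21), those of Abcb11 1.13 (1.09 to 1.17) and 1.10 (1.06 to 1.14), and those of Slc10a1 1.04 (0.988 to 1.10) and 0.970 (0.915 to 1.03). Baat had 0.875 (0.804 to 0.953) and 0.926 (0.851 to 1.01), and Slc27a5 had 1.05 (0.965 to 1.15) and 1.10 (1.01 to 1.20). Nr1h4 was thus higher pericentrally, and within Malat1-rich clusters it had 1.26 (1.21 to 1.31) and 1.18 (1.13 to 1.23). Slc10a1 had 0.874 (0.826 to 0.926) and 0.780 (0.730 to 0.833) in those clusters, lower pericentrally in both libraries. In finer bins Nr1h4 and Abcb11 were highest between the ends of the score, with Abcb11 at 1262 CPM in the fourth of 6 bins and at 1001 and 992 CPM in the outer bins of the SLC22A18-/- library.

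**Figure D3:**
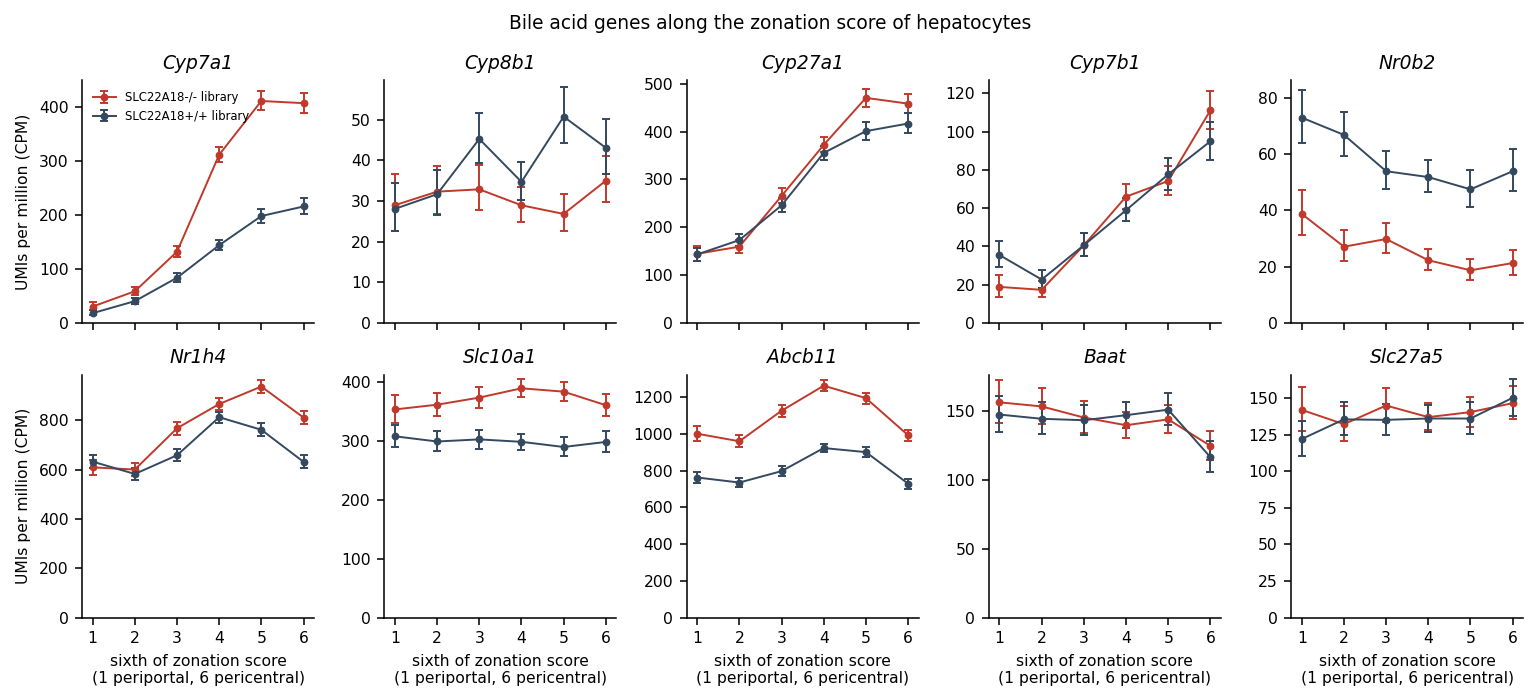
CPM of the 10 members over 6 equal bins of the zonation score (1 periportal, 6 pericentral) in hepatocytes of each library, with exact 95% Poisson intervals. Cyp7a1 climbs along the score, to 412 CPM in the fifth bin of the SLC22A18-/- library and 216 CPM in the sixth bin of the SLC22A18+/+ library, and the 2 lines of Nr0b2 do not meet in any bin (18.7 to 38.7 CPM against 47.5 to 73.0 CPM).

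The genes whose profile over these 12 points (6 bins in each of 2 libraries) was most like that of a member were named by Pearson's r of log2(CPM + 1), among 7116 genes with at least 500 hepatocyte UMIs in each library. The points share libraries and cells, so the r values are descriptions. They span both libraries, so r takes in the difference between libraries as well as the zonal profile. For Cyp7a1 they were Gm2788 (0.992), Tomm40l (0.989), a paralogue of a mitochondrial import channel, and Cyp2a22 (0.987), with library ratios of 1.64, 1.24 and 1.49. For Cyp7b1 they were Manba (0.987), a lysosomal mannosidase, Tox (0.974) and Gda (0.974), guanine deaminase. For Nr0b2 they were G6pc (0.964), which releases free glucose, Dusp1 (0.936), a stress-induced phosphatase that is also on the dissociation list, and Tob2 (0.934). Library ratios of these 3 genes were 0.248, 0.598 and 0.603. The likeness was lower for Cyp8b1, with Idh1 (0.812), Fdps (0.810), an enzyme of cholesterol synthesis, and Ssr1 (0.808).

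Other genes of the pathway were read by role. Of 14 further synthesis genes 13 could be measured and 0 passed the size rule, with a median log2 ratio of 0.15 (0.14 in Malat1-rich and 0.09 in Malat1-poor clusters). Those with the most UMIs were Akr1c6, a hydroxysteroid dehydrogenase with a ratio of 0.944 (0.929 to 0.960), and Scp2, a peroxisomal thiolase and sterol carrier with 0.991 (0.972 to 1.01). Of 17 further transport genes 16 could be measured and 0 passed, with a median of 0.03 (-0.05 and -0.18 by kind). Slco1b2, an uptake carrier of the sinusoidal side, had a ratio of 1.21 (1.20 to 1.23), and Abcc2, an exporter of conjugates into bile, 1.06 (1.05 to 1.08). Of 20 further regulators 18 could be measured and 0 passed, with a median of 0.07 (0.002 and -0.06 by kind). Ppara, the fatty acid receptor, had a ratio of 1.14 (1.12 to 1.16) and Nr1i3, the receptor CAR, 1.23 (1.19 to 1.26). Foxa2, a forkhead factor with bile acid genes among its targets, was looked at after its value was seen, and had 1.98 (1.83 to 2.14), from 1906 and 975 UMIs. Fgf15, the intestinal hormone that represses Cyp7a1, gave 0 UMIs in hepatocytes of either library. The 19 clock genes, listed because Cyp7a1 follows the time of day, had a median of 0.03 (-0.05 and -0.02 by kind) with 0 past the rule, and Rora and Tef, with the most UMIs, both had ratios of 1.13. Single clock genes ranged from -0.65 to 0.64 on the log2 scale. At the ends, named after their values were seen, were Bhlhe40, a repressor, with a ratio of 0.638 (0.610 to 0.668), and Npas2, a partner of Arntl, with 1.57 (1.04 to 2.39) from 62 and 40 UMIs.

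**Figure D4:**
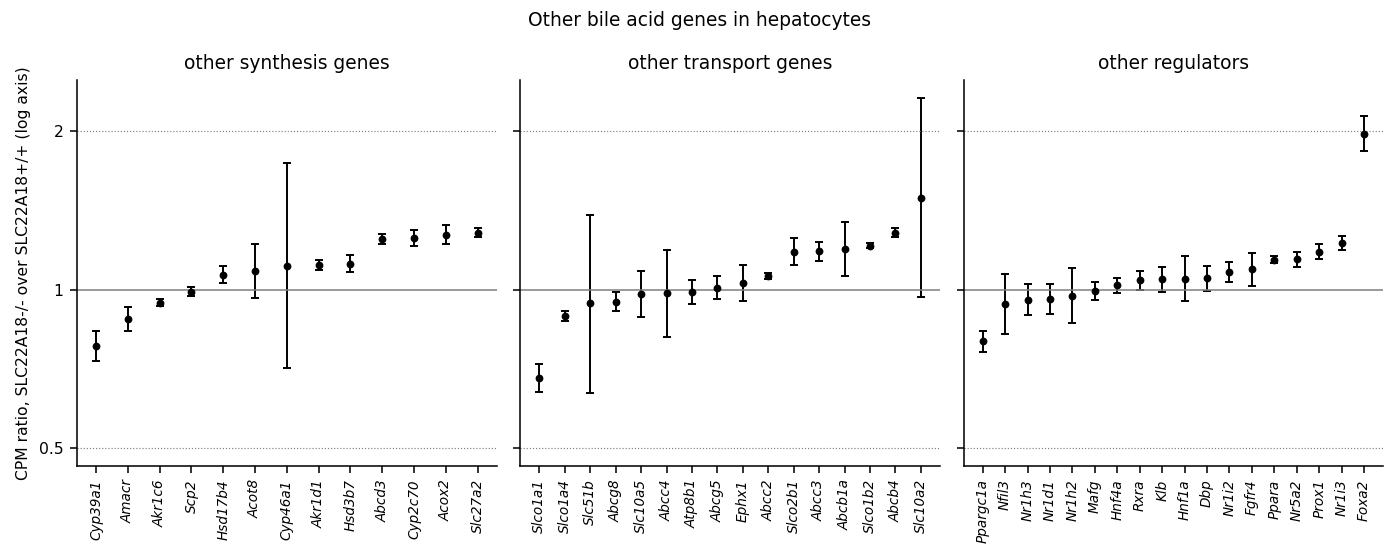
Ratio of CPM in hepatocytes of the SLC22A18-/- library over the SLC22A18+/+ library (log axis) for the measured genes of 3 lists, with exact 95% counting intervals; dotted lines mark 0.5 and 2. All 13, 16 and 18 points lie between the dotted lines, with Foxa2 nearest at 1.98.

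Outside hepatocytes, RNA released by broken hepatocytes reaches every droplet. Member levels in 10 other cell classes were therefore set against the UMIs of 15 abundant hepatocyte genes in the same class, and divided by the same value in T cells. Hepatocytes themselves stood at 10.5 and 6.25 times the T cell value for Nr1h4 and at 9.91 and 5.83 for Abcb11. For Cyp27a1 they stood at 7.40 and 3.66, for Cyp7b1 at 3.78 and 1.99, and for Cyp8b1 at 0.871 and 0.897. The measure takes account of free RNA like that in T cells, and not of hepatocytes captured with a cell. Of 48 combinations of member and class with at least 50 UMIs over both libraries, 11 were at least 2-fold above T cells in both libraries. Cyp7a1, Slc10a1, Baat and Slc27a5 were in none of them, and Nr0b2 reached that count in liver endothelial cells only, at 1.21 and 1.81 times the T cell value.

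Cyp7b1 stood out in liver endothelial cells. It was at 42.2 CPM (39.6 to 44.9) in the SLC22A18-/- library and 27.4 CPM (25.4 to 29.5) in the SLC22A18+/+ library, 16.1 and 7.35 times the T cell value, and 70.7% and 49.7% of the level in hepatocytes. The library ratio of 1.54 (1.40 to 1.70), from 997 and 718 UMIs, was above 1 in 5 of 5 endothelial clusters. Cluster 29, led by genes that include Rspo3 and Wnt2 of the central vein region, had 80.1 CPM (71.5 to 89.4) and 55.3 CPM (47.6 to 63.9). Cluster 34, at a median of only 1684 UMIs, had 83.5 CPM (63.1 to 108) and 73.3 CPM (55.1 to 95.6), but the lowest levels of the 5 against the hepatocyte genes, 23.3 and 19.6 UMIs per 10000. The other clusters, 4, 5 and 31, lay between 24.96 and 45.7 CPM in the SLC22A18-/- library and between 17.7 and 22.5 CPM in the SLC22A18+/+ library.

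Stellate cells, the vitamin A storing cells of the sinusoid, held Nr1h4 at 344 CPM (328 to 361) and 417 CPM (401 to 433), 35.3 and 39.3 times the T cell value. This was 43.3% and 60.1% of the hepatocyte level. The library ratio of 0.826 (0.776 to 0.878) was on the other side of 1 from that in hepatocytes, but the direction was not shared by the clusters, with 350 and 448 CPM in cluster 3 and 303 and 193 CPM in cluster 32. Cyp7b1 in stellate cells was at 29.9 and 18.1 CPM, and Cyp27a1 at 33.6 and 40.9 CPM. Abcb11 was 4.05 and 2.90 times the T cell value there, at 58.7 and 38.9 CPM, and cluster 32 carried hepatocyte genes at 10.4% of the level in hepatocyte clusters. Per 10000 UMIs of the hepatocyte genes, Nr1h4 was at 862 and 1129 in stellate cells, against 257 and 180 in hepatocytes. Cyp7b1 was at 75.0 and 49.0 against 19.3 and 14.3, and Cyp27a1 at 84.1 and 111 against 109 and 77.1. Abcb11 was at 147 and 106 against 360 and 213. The part of hepatocyte RNA in these stellate values was not tested.

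Cyp27a1 was at least 2-fold above T cells in Kupffer cells, monocytes and both dendritic classes. Kupffer cells, the resident macrophages, had 48.9 CPM (45.2 to 52.9) and 43.8 CPM (40.1 to 47.9), 4.32 and 2.57 times the T cell value, and the library ratio was 1.12 (0.991 to 1.26). Clusters 17 and 18 carried this, with 70.2 and 78.3 UMIs per 10000 UMIs of the hepatocyte genes in the SLC22A18-/- library and 60.8 and 53.5 in the SLC22A18+/+ library. Cluster 0, with 333 and 298 of the Kupffer cells, had 16.7 and 16.6, against 14.8 and 21.0 in T cells. Neutrophils, with 6 and 5 UMIs, were at 1.44 (0.485 to 3.58) and 0.622 (0.192 to 1.57) times the T cell value. Monocytes had 48.8 and 49.0 CPM, from 31 and 37 UMIs, conventional dendritic cells 75.2 and 42.9 CPM, and plasmacytoid dendritic cells 78.4 and 45.9 CPM. Both dendritic classes of the SLC22A18-/- library also held Abcb11 at 5.04 and 8.17 times the T cell value, against 0.628 and 0.960 in the SLC22A18+/+ library, and the part of hepatocyte RNA in their higher Cyp27a1 was not tested.

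Cyp8b1 was above the T cell value in conventional dendritic cells. These cells, 84 and 81 in number, held it at 43.6 CPM (33.7 to 55.6) from 65 UMIs and 34.4 CPM (25.3 to 45.5) from 48 UMIs. These were 142% and 87.9% of the hepatocyte level, 10.9 and 6.08 times the T cell value, and 45.2% and 37.0% of the cells had a UMI. The library ratio of 1.27 (0.861 to 1.88) held 1. In the same cells Abcb11 was at 5.04 and Nr1h4 at 4.61 times the T cell value in the SLC22A18-/- library, and at 0.628 and 0.896 times in the SLC22A18+/+ library. Per 10000 UMIs of the hepatocyte genes, Cyp8b1 was at 124 and 68.7 in conventional dendritic cells and at 9.89 and 10.1 in hepatocytes. The part of hepatocyte RNA in the Cyp8b1 value of the SLC22A18-/- library was not tested.

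Cholangiocytes, the cells that line bile ducts, held Nr1h4 at 93.8 and 97.0 CPM, 2.97 and 2.91 times the T cell value. They carried the 15 hepatocyte genes at 41.8% and 30.1% of the hepatocyte level, and Abcb11 at 1.07 and 1.81 times the T cell value. The part of hepatocyte RNA in the cholangiocyte values was not tested. Nr0b2 was looked at there after its values were seen, and stood at 22.2 CPM (14.1 to 33.4) and 25.9 CPM (16.4 to 38.9), from 23 UMIs in each library among 70 and 52 cells. These were 10.1 (3.05 to 52.5) and 14.5 (4.38 to 75.5) times the T cell value, and the intervals of the 2 levels overlapped.

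**Figure D5:**
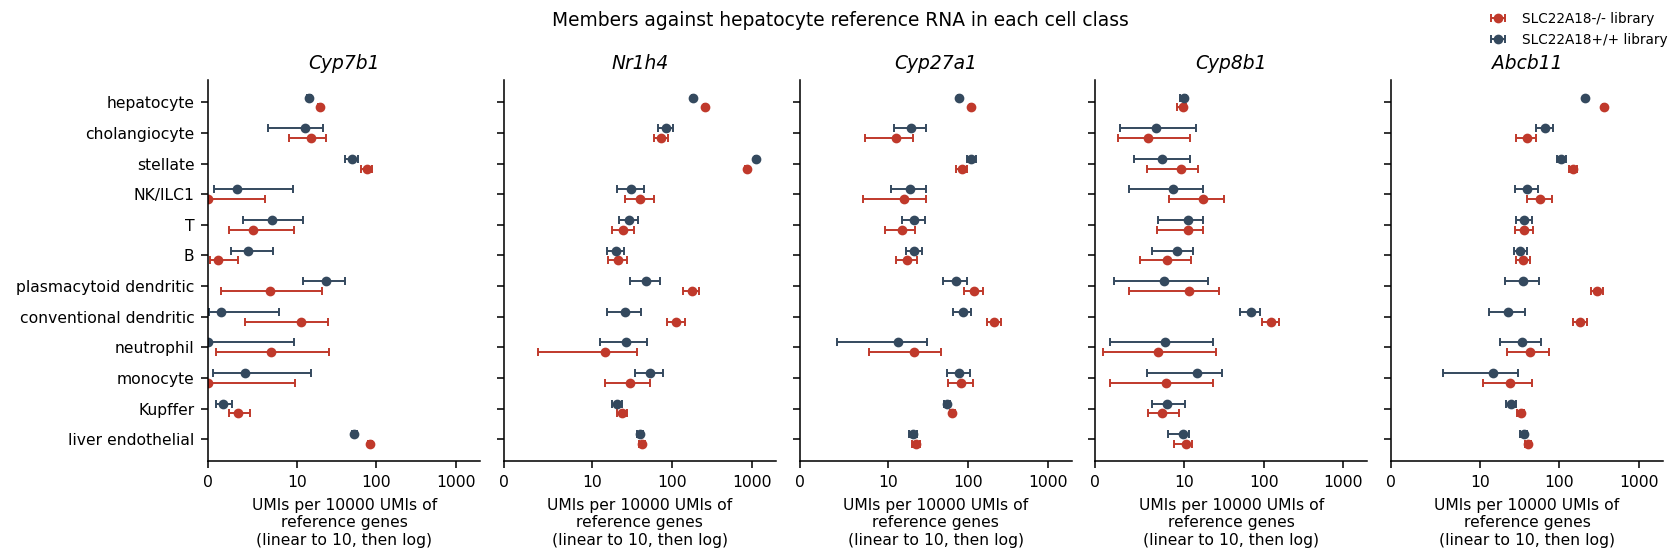
UMIs of 5 members per 10000 UMIs of 15 hepatocyte reference genes in each cell class and library, with exact 95% Poisson intervals of the member count; the axis is linear to 10 and logarithmic above. Free RNA like that in T cells would place a class near T cells. Hepatocytes themselves lie to the right of T cells except for Cyp8b1. Cyp7b1 in endothelial cells (82.3 and 52.8 against 5.11 and 7.19 in T cells), Nr1h4 in stellate cells and Cyp8b1 in conventional dendritic cells lie to the right of T cells in both libraries.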

How the data were processed

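Liver cells of 2 mouse libraries, 1 per genotype, were analysed. The deposited matrices hold whole-number counts of UMIs for each gene in each barcode, not normalized, and per the file headers come from Cell Ranger 8.0.1. The submitters' processing notes name mm10, Cell Ranger and STAR. Further deposited files list genes and barcodes. The members and gene lists were chosen with earlier results of these data known.

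Barcodes with under 500 UMIs, under 300 genes or over 20% mitochondrial UMIs were left out. Scrublet scored doublets in each library (scanpy 1.11.5, expected rate 8%). The automatic threshold of the SLC22A18+/+ library, 0.276, was used for both and removed 354 and 429 cells (3.09% and 3.45%); that of the SLC22A18-/- library, 0.310, would have removed 304. Both libraries were clustered together without integration (2000 variable genes without the members and pathway genes, 30 components, 15 neighbours, Leiden resolution 1) into 36 clusters, named from marker lists. Clusters stayed unnamed with a median doublet score of at least 0.15, fewer than 3 markers found in 10% of cells, a second class scoring at least 0.7 of the first, or, for other classes, hepatocyte genes at 25% or more of the hepatocyte level. They held 17.7% and 18.6% of cells. These limits, the shared doublet threshold and the division of hepatocyte clusters at 10000 CPM of Malat1 were chosen after seeing the data, and class names rest on these rebuilt clusters. Free RNA was not subtracted.

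Counts were summed per class and library and scaled to UMIs per 1000000 UMIs (CPM), with exact Poisson intervals, and ratios carry exact Clopper-Pearson intervals from the 2 counts. Shares carry exact binomial intervals. All are at 95% and cover counting error only. Log2 ratios used 0.5 added to each sum. All members were named, and of each list the members past the size rule or otherwise the 2 with the most UMIs. The size rule, the intervals and the zonation score were tested on simulated data. Gene positions are from GENCODE vM21 on GRCm38, and promoters from RefSeq on GRCm38.p6. Alternatives were other cell filters, scalings, weights, clusterings and ratio limits, and, added after seeing the data, the 2 kinds of hepatocyte cluster and the removal of shared barcodes.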

Additional observations from a re-analysis of the deposited data

Results flagged for a closer look

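For 4 members the library ratio, summed over each kind of hepatocyte cluster, lay on opposite sides of 1 in the 2 kinds. The intervals of these sums excluded 1 in both. Cyp27a1 had 1.065 (1.032 to 1.099) in Malat1-rich and 0.7329 (0.6301 to 0.8508) in Malat1-poor clusters. Slc10a1 had 1.283 (1.243 to 1.326) and 0.8081 (0.7429 to 0.8786). Abcb11 had 1.25 (1.228 to 1.272) and 0.8818 (0.7884 to 0.9855). Slc27a5 had 1.055 (1.002 to 1.111) and 0.886 (0.7938 to 0.9881). The difference between the kinds was not tested, and each library gave 1 value per kind. In the single Malat1-poor clusters, 22 and 23, Abcb11 had 1.06 and 1.002 and Slc10a1 0.914 and 0.930. Slc27a5 had 1.13 and 0.877 there, and all of these intervals held 1. Cyp27a1 had 0.860 (0.696 to 1.06) and 0.765 (0.613 to 0.952). In Malat1-rich clusters 8, 10, 11 and 19 Cyp27a1 had 0.980, 0.951, 0.981 and 1.05, and each interval held 1. The Malat1-poor clusters held 2007 and 2335 UMIs per cell at the median, against 5905 and 5490 in the Malat1-rich clusters.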

How the results depend on the processing

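No paired analysis was possible because each genotype had 1 library, and none could be left out. The count of members past the size rule, 2, was the same under 10 of 13 alternatives. It was 1 with each cell weighted equally and with zones weighted equally, where the Cyp7a1 ratio was 1.952 and 1.958. It was 0 in Malat1-poor clusters only, where Cyp7a1 had 1.153 and Nr0b2 0.836. In Malat1-rich clusters only, these had 2.025 and 0.3481. Cyp7a1 stayed above 1 (1.153 to 2.146) and Nr0b2 below 1 (0.3481 to 0.836) throughout. Cyp7b1 turned to 0.9959 with zones weighted equally and 0.982 in Malat1-rich clusters. In Malat1-poor clusters Cyp27a1 turned to 0.7329, Nr1h4 to 0.9393, Slc10a1 to 0.8081 and Abcb11 to 0.8818. Of the pericentral-to-periportal ratios, those from the outer sixths of the score turned for Abcb11 (0.9917 in the SLC22A18-/- and 0.956 in the SLC22A18+/+ library) and for Nr1h4 (0.9987 in the SLC22A18+/+ library). In Malat1-rich clusters Abcb11 turned to 0.9561 in the SLC22A18-/- and Slc27a5 to 0.9526 in the SLC22A18+/+ library. The cause was not tested. Over all genes 43 were higher and 18 lower, and 38 and 28 with median-of-ratios scaling, 41 and 26 with each cell weighted equally. At Leiden resolution 0.5 the clusters that best matched conventional dendritic cells and cholangiocytes stayed unnamed, and no cluster was named monocyte. The member levels of those classes were thus not available at that resolution. Of the 2 kinds, the Malat1-poor clusters rested on fewer UMIs, with 48 and 57 of Cyp7b1. Depth per cell was low in cluster 22, at a median of 924.5 UMIs. Cluster 23 had 4640, against 4083.5 in Malat1-rich cluster 10.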
